A study of Mus musculus with 6 samples.

Results

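A set of 910 autosomal regions carried calls of trimethylated lysine 27 of histone H3 (H3K27me3) in both control libraries, by 2 peak callers, and no call in either Ezh2 mutant library. They were chosen from the calls themselves. The deposited MACS2 peak lists of the 4 libraries were merged where peaks touch or overlap, which gave 54594 autosomal regions. A region was kept when it held a MACS2 peak of both controls and of neither mutant, and when it also overlapped at least 1 hiddenDomains bin of each control and no bin of either mutant. By MACS2 alone 2684 regions, 4.92% of all, were control-only, and the requirement on the bins left 910, or 1.67%. The presence of calls in the controls and their absence in the mutants therefore describe how the regions were chosen and were not tested. These regions are called control-only below.

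The enzyme that writes H3K27me3 is Polycomb repressive complex 2 (PRC2), in which either EZH2 or the related EZH1 carries out the methylation. The mark is bound by Polycomb repressive complex 1 and accompanies silencing of developmental genes, often over CpG-rich promoters. In the male germ line it persists at many such genes through meiosis into sperm. Broad Polycomb domains hold nucleation sites from which the mark spreads, whereas narrow peaks can mark single promoters or distal elements.

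The study mapped H3K27me3 by chromatin immunoprecipitation and sequencing in spermatogenic cells of 6-week-old mice of mixed background. Controls were MvhCre;Ezh2fl/+ (2 libraries) and mutants MvhCre;Ezh2fl/fl (2 libraries), so all 4 libraries carried the germ cell recombinase Mvh-Cre and at least 1 floxed Ezh2 allele, and the controls kept a wild-type allele that Cre cannot remove. Mvh-Cre acts in germ cells, so somatic cells left in the preparation would keep Ezh2. The labels name no change of Ezh1 in either genotype. The cells were a mixture of stages with 90% spermatogenic cells by the labels' estimate, and no measurement of Ezh2 deletion or of marker genes was used here to check that estimate.

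The lists hold positions but no heights, so a region without a call may still carry the mark at a level under the callers' thresholds. In such mixed cells, loss of the mark from a share of the cells and a lower level in every cell cannot be told apart. The lists held 31863 to 42363 peaks and 223219 to 271287 bins per library, with the most peaks in mutant 1 and the fewest bins in mutant 2. Bins covered 53.4 and 54.3 Mb in controls 1 and 2, against 50.9 and 44.6 Mb in mutants 1 and 2. Read depth is unknown, so its part in the absence of a call was not tested. Positions are in the mm9 build, counted from 1. No mm9 gene annotation or sequence was used here, and regions are therefore named by position.

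The control-only regions were short, with a median width of 1202 bp and an interquartile range of 907 to 1606 bp. The narrowest spanned 334 bp and the widest 5340 bp. Together they covered 1203 kb, and held 1.44% and 1.43% of the autosomal peak length of controls 1 and 2. They were single peaks in nearly every case: 902 of the 910 consisted of 1 peak in each control. MACS2 peaks within them had a median length of 961 bp in control 1 and 985 bp in control 2. The longer peak was that of control 1 in 416 regions and that of control 2 in 493, so neither control dominated. The centres of the 2 control peaks lay a median of 124 bp apart in the 902 regions. A median of 67.05% of the region lay inside the peaks of both controls, and this share was at least 50% in 693 regions, or 76.2%.

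Bins of hiddenDomains, 200 bp each, overlapped these regions in a median of 4 bins in either control. They covered a median of 63.5% of the region in control 1 and 60.4% in control 2. In 167 regions there were at least 5 bins in both controls, and in 46 regions the bins covered at least 90% of the region in both. Bins of the highest display score made up 79.97% of the bins in these regions in control 1 and 78.4% in control 2. Over all autosomal bins of the same libraries the shares were 93.0% and 93.1%. The highest score was thus a smaller share of the bins in the control-only regions than of all autosomal bins. Widths were not matched in this comparison. What the display score stands for is not stated in the labels or file headers.

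**Figure D1:**
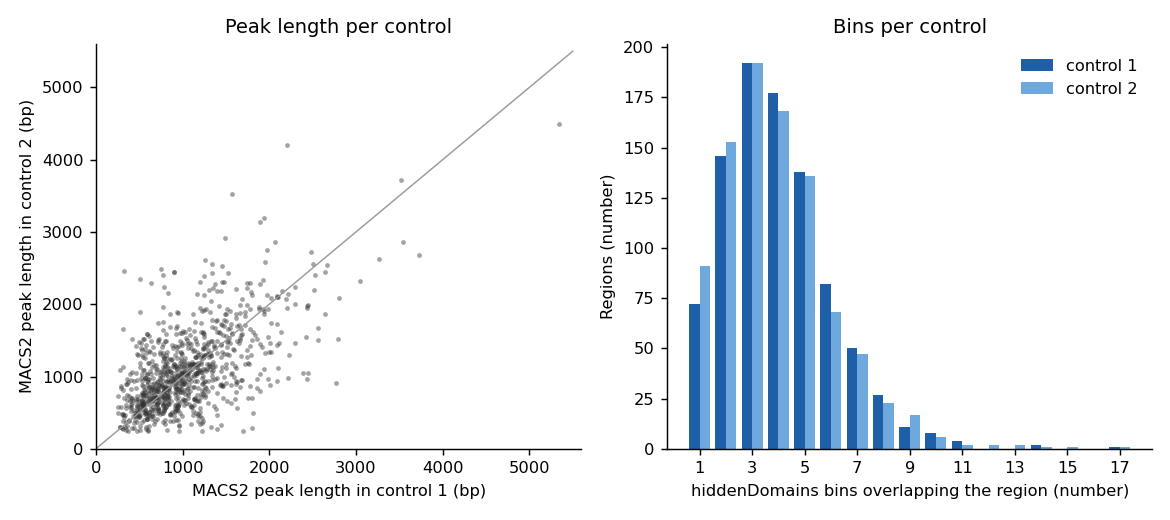
Left, MACS2 peak length (bp) of control 1 against control 2 in each of the 910 control-only regions, with the line of equal length. Right, number of regions by the number of hiddenDomains bins in each control. Most regions lie under 2000 bp in both controls, and the medians are 961 and 985 bp and 4 bins.

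The widest control-only region lay at chr2:151396373-151401712. MACS2 peaks covered 5340 bp of it in control 1 and 4493 bp in control 2, and bins covered 2800 and 1800 bp. Both mutants were without a peak or bin there, and their nearest call lay 18 kb away. It was the only control-only region wider than 5 kb.

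Some regions were densely covered in both controls. At chr1:173116526-173120240, peaks covered 3522 and 3715 bp and bins 3400 and 3400 bp in controls 1 and 2. The region next to it, 3.21 kb away at chr1:173123452-173127533, was called in all 4 libraries. There peaks covered 3178 and 3777 bp in controls 1 and 2, and 3043 and 3526 bp in mutants 1 and 2. These neighbours had about equal lengths of peaks in the controls, and the mutants called the one and not the other.

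At chr4:122586163-122588829, peaks covered 2667 and 2547 bp in the controls and bins 2629 and 2600 bp. The nearest call of a mutant lay 47.1 kb away. Another region, at chr1:89153585-89156272, had 2642 and 2452 bp of peaks and 2000 and 2400 bp of bins. At chr3:53092227-53094289 the bins covered 1889 and 1974 bp, nearly the whole of the region in both controls. These 4 regions and the widest one had the most base pairs covered by bins in the control with fewer.

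The other wide regions were less evenly covered. At chr2:169578735-169583326, the peaks spanned 2199 bp in control 1 and 4203 bp in control 2. At chr10:118544431-118548824, peaks spanned 3547 and 2867 bp, but bins covered only 400 bp in control 1 against 2000 bp in control 2. At chr15:98401722-98405793, 2809 and 2087 bp of peaks met 800 and 400 bp of bins. In these 3 regions the controls differed from each other by up to 5 times in the length of the bins. The next widest regions lay at chr7:35674700-35678427, at chr12:55755227-55758760, at chr9:54534824-54538139, at chr3:57429286-57432592 and at chr17:87439497-87442728. Peaks in them spanned between 1568 and 3728 bp in either control.

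**Figure D2:**
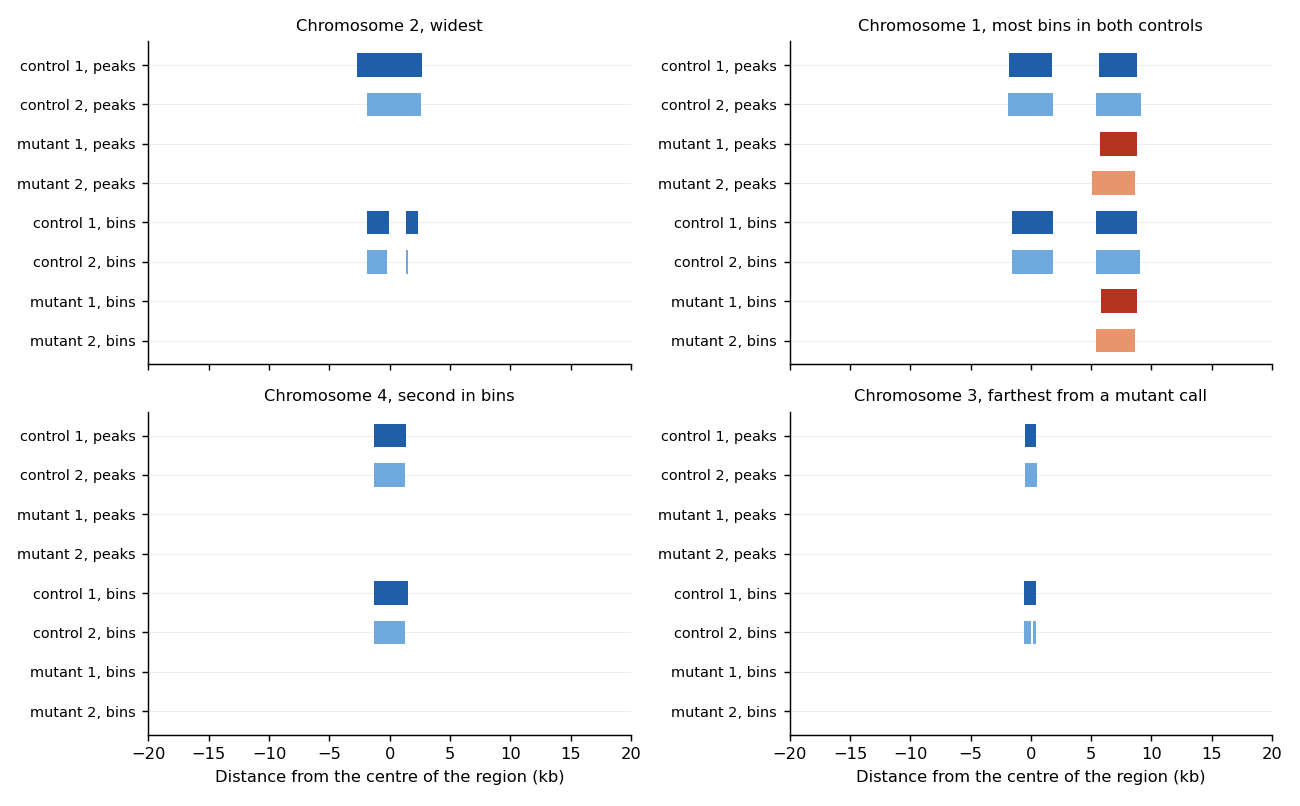
Calls within 20 kb of the centre of 4 control-only regions, 1 row per library and caller (controls blue, mutants red), plotted by distance from the centre in kb. The chromosome 1 region has a neighbour called in all 4 libraries, 3.21 kb away, and the other 3 regions stand alone within the 20 kb shown on either side.

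The callers were compared first for how often they gave the same absence. Of the 2684 regions that MACS2 called in the controls alone, 934 had bins in both controls, and 910 of these, or 97.4%, had no bin in either mutant. A further 847 had bins in 1 control and none in the mutants, beside 14 with bins in 1 mutant and 2 with bins in both. With no bin in the controls, 879 had none in the mutants either, 7 had bins in 1 mutant and 1 in both. Mutant bins were thus rare in these MACS2 regions whether or not the controls had bins. The same was seen with the genotypes exchanged. Of 222 regions with peaks and bins in both mutants and no control peak, 94.1% had no control bin. Starting from the bins gave another share. Of 2769 autosomal regions of merged bins with a bin in both controls and neither mutant, 63.7% held a MACS2 peak of at least 1 mutant. Only 949 of them, or 34.3%, had MACS2 peaks in both controls and neither mutant. With the genotypes exchanged, 68.5% of 1022 such bin regions held a peak of at least 1 control. Peaks in both mutants and neither control stood in 26.1% of them. In these lists a control region without mutant bins therefore often held mutant peaks, whereas one without mutant peaks rarely held mutant bins. This order of the callers was the same with the genotypes exchanged, so it is not particular to the control-only regions.

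A related question was how many of the mutants' lists were empty in regions that both callers gave in both controls. Merging the control peaks alone gave 25477 regions with a peak in both controls, of which the 910 made up 3.57%, and 20013 of these also had bins in both controls. Each mutant has 2 lists, one per caller, and 15488 of the 20013 regions, or 77.4%, had a call in all 4 lists. Calls stood in 3 lists in 1467 regions, in 2 lists in 1242 and in 1 list in 906, and no list had a call in the 910 control-only regions (4.55%). Their number was nearly that of the regions with a call in a single list. The single list was most often a MACS2 list, that of mutant 1 in 521 regions and that of mutant 2 in 363. A bin list alone held a call in 15 regions in mutant 2 and in 7 in mutant 1.

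This share depended on the width of the region. Among regions with peaks and bins in both controls, 25.6% of the 1062 that were 500 to 1000 bp wide were control-only, and 22.3% had a call in all 4 mutant lists. At 1000 to 2000 bp, 9.03% of 5561 regions were control-only and 54% were called in all 4. At 2000 to 3000 bp the shares were 1.93% and 83.8%, and at 3 to 5 kb 0.247% and 95.8%. Of 2795 regions wider than 5 kb, 1 was control-only. Only 99 regions were under 500 bp, of which 21.2% were control-only. A wide region has more base pairs in which a call can fall, and the part of this in the order was not tested.

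Within a width class the share also fell with the bin coverage in the controls. The 1000 to 2000 bp regions were split by the part covered by bins in the control with fewer. Of those under 25%, 24.7% were control-only (82 of 332, 95% Clopper-Pearson interval 20.2 to 29.7%). The share was 18.5% at 25 to 50%, 8.99% at 50 to 75% and 3.31% at 75 to 90%. Of those at 90% or more, 1.54% were control-only (13 of 842, interval 0.825 to 2.63%). Regions of 500 to 1000 bp followed the same order up to 75 to 90%, from 47.4% to 16.6%, and gave 17.3% at 90% or more. Those of 2000 to 3000 bp went from 13.8% to 0.193%. The intervals cover counting error only, and no test was made, since regions are not replicates and the calls chose them.

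**Figure D3:**
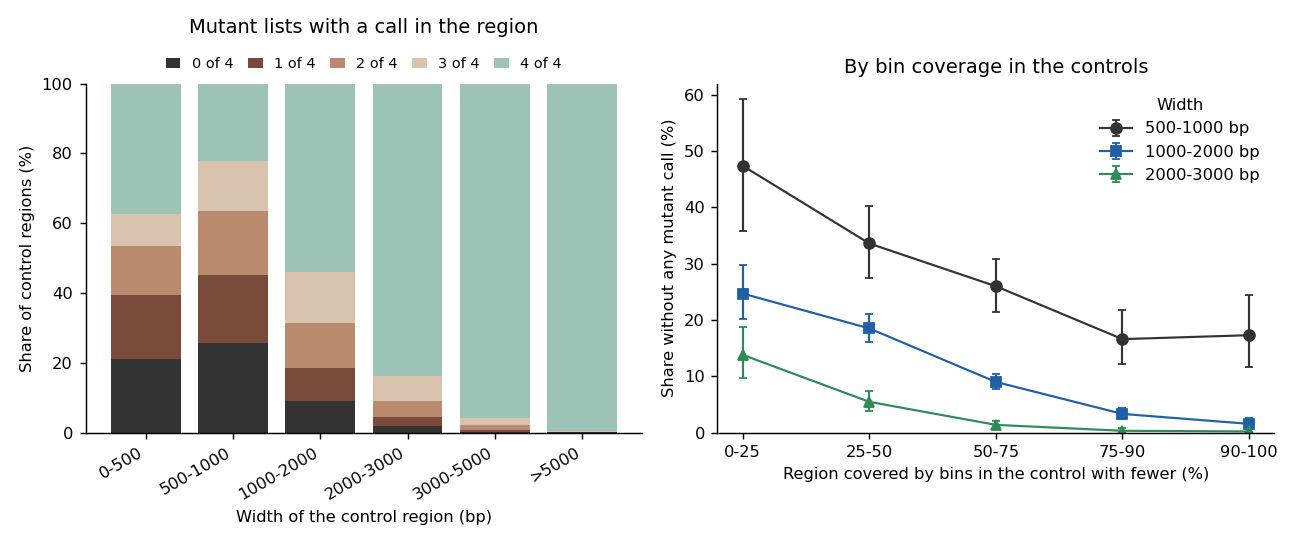
Left, share (%) of regions with peaks and bins in both controls by the number of the 4 mutant lists with a call, for each width class. Right, share (%) without any mutant call against the part of the region covered by bins in the control with fewer, by width (error bars, 95% Clopper-Pearson intervals). The black part of the bars is 25.6% at 500 to 1000 bp and 0.247% at 3 to 5 kb, and the 1000 to 2000 bp curve goes from 24.7% to 1.54%.

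Control-only regions were then set beside retained regions of the same width class, those with a call of both callers in all 4 libraries. Widths were not matched within a class. At 1000 to 2000 bp there were 502 control-only and 3002 retained regions. Bins covered a median of 63.7% and 58.9% of the control-only regions in controls 1 and 2, against 84.2% and 85.9% of the retained ones. Bins of the highest score made up 81% and 78.6% of the bins in the control-only regions and 91.7% and 92% in the retained ones. The part inside the peaks of both controls had a median of 66.7% in control-only and 83.8% in retained regions. Bins covered at least 90% of the region in both controls in 2.59% of the control-only and 22.5% of the retained regions. Within this width class the control-only regions were thus less fully called in the controls themselves, in the same direction in both control libraries. The same held at 500 to 1000 bp, with median bin coverage of 71.2% and 68.7% against 84.4% and 84.5%.

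At the edge of the rule, 149 control-only regions had exactly 1 bin in at least 1 control, and 14 had exactly 1 in both. The widest of the 149 lay at chr4:107695880-107698437, with 1 bin in control 1 and 6 in control 2. The next lay at chr13:44828495-44831022, with 5 bins and 1 bin, and at chr11:120898768-120901201, with 2 bins and 1 bin. Just outside the rule stood 24 regions that met it except for mutant bins, of which 15 failed through a single bin of 1 mutant. The widest of those lay at chr13:40712673-40715967, with 5 and 11 control bins and 1 bin in mutant 1. At chr18:53807388-53809904 there were 5 and 3 control bins and 1 bin in mutant 1. At chr19:47779149-47781058 there were 10 and 9 control bins and 1 bin in mutant 2.

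The surroundings of the control-only regions come from the same lists, and the rule shapes them next to the regions, since any mutant peak or bin that reached into a region removed it. The nearest call of either mutant lay a median of 15.8 kb away, with an interquartile range of 6.19 to 43.6 kb. A mutant call lay within 1 kb of 13 regions, a count on which the rule bears directly, and within 50 kb of 712, or 78.2%. The nearest region with a MACS2 peak in all 4 libraries, bins not required, lay a median of 26.3 kb away. In 98 regions, or 10.8%, no mutant call lay within 100 kb. No share over other regions stands beside these distances, so they do not set the control-only regions apart. Sparse surroundings were not particular to them. Of the 25477 regions called in both controls, 2346 had no other such region within 100 kb, and 119 of these were control-only. The control-only region farthest from a mutant call lay at chr3:112105704-112106671, with 916 and 968 bp of peaks in the controls. Its nearest mutant call was 1403 kb away. The next was at chr3:43883538-43884206, with 362 and 669 bp of peaks and 1022 kb. The regions at chr17:18785362-18786567, chr14:43121538-43122562 and chr8:6437431-6439215 lay 735, 677 and 578 kb from a mutant call.

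The nearest neighbour called in both controls was most often retained. The regions on both sides were retained by both callers in 37.5% of the control-only regions, against 37.8% of all regions called in both controls. The nearest neighbour was retained for 57.1% of control-only regions and 60.7% of all. It was itself control-only for 5.27%, against 3.62% of all. The distance to that neighbour had a median of 18.6 kb for control-only and 13.1 kb for all regions. Against retained regions of the same width class it was 23.7 and 19.1 kb at 500 to 1000 bp, 16.2 and 16 kb at 1000 to 2000 bp, and 18 and 13.3 kb at 2000 to 3000 bp. The control-only regions thus stood farther from their neighbour in the narrower and the wider class and about as far in the middle one. Over all widths, 2.44% of the regions with a neighbour within 5 kb were control-only, and 5.07% of those with none within 100 kb. At 1000 to 2000 bp these shares were 4.74% and 7.75%. Retained regions flanked the control-only ones on both sides at about the rate seen for any region called in both controls.

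Calls from 2 to 10 kb beyond the ends of the control-only regions were compared between libraries. Bins there covered a mean of 718 and 740 bp per region in controls 1 and 2, and 560 and 536 bp in mutants 1 and 2, and the genotypes did not overlap. The mutant mean was 75.2% of the control mean. The control-only regions here are of all widths. Around retained regions of 1000 to 2000 bp, bins covered 821 and 830 bp in controls 1 and 2, and 785 and 682 bp in mutants 1 and 2, or 88.8%. MACS2 peaks covered 867 and 886 bp in controls 1 and 2, and 780 and 679 bp in mutants 1 and 2 around the control-only regions, or 83.2%. Around the retained ones they covered 1017 and 1056 bp against 1232 and 994 bp, or 107%, with mutant 1 above and mutant 2 below both controls. Around retained regions of all widths the mutant mean was 92.5% of the control mean by bins and 111% by peaks. The first 2 kb beyond the ends were left out, because control bins that overlap a region can run past its end there, whereas a mutant bin doing so removed the region. By bins, the length called around the retained regions of 1000 to 2000 bp was also lower in both mutants than in either control. From 2 to 10 kb beyond the control-only regions the length called was lower in both mutants than in either control, by both callers. A mutant peak that reached into a region removed it however far it ran, so the rule can bear on these lengths too. The retained regions were chosen for the presence of mutant calls, which can bear on theirs. The same rule with the genotypes exchanged gave 209 regions. Around those the mutant mean at 2 to 10 kb was 124% of the control mean by bins and 156% by peaks. In both sets the surroundings thus went in the direction of the choice. The genotype contrast is that of the rule, and no test was made.

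**Figure D4:**
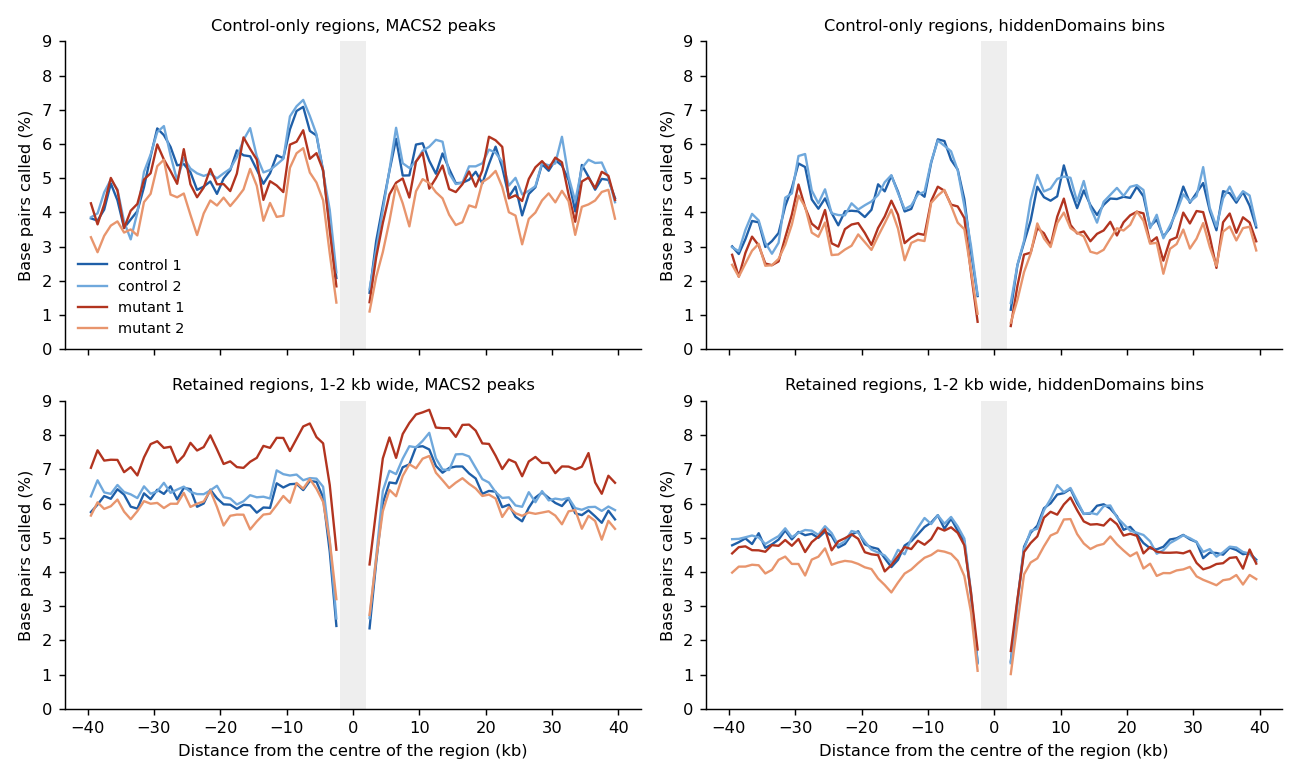
Share of base pairs called (%) per 1 kb by distance from the centre (kb), for each library (controls blue, mutants red). Top, around control-only regions of all widths, and bottom, around retained regions of 1000 to 2000 bp, by MACS2 (left) and hiddenDomains (right). The central 4 kb (grey) is left out. It is measured from the centre, so part of the first 2 kb beyond the ends is shown, as are the ends of regions wider than 4 kb. The selection bears on those parts. From 2 to 10 kb beyond the ends of control-only regions, the mean bin length is 718 and 740 bp in controls 1 and 2. It is 560 and 536 bp in mutants 1 and 2.

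All autosomes held control-only regions, from 27 on chromosome 11 to 91 on chromosome 10, and the rule gave none on X, where only 63 regions had peaks of both controls, too few to compare with the autosomes. Chromosome 10 held 10% of the control-only regions but 6.18% of the regions called in both controls. There 91 of 1574 such regions, or 5.78%, were control-only (interval 4.68 to 7.05%). On chromosome 11 it was 1.59% of 1698 (1.05 to 2.31%), and over all autosomes 3.57%. Chromosome 3, at 5.25%, stood next to chromosome 10. Among regions of 1000 to 2000 bp the share was 9.55% on chromosome 10, 3.31% on chromosome 11 and 6.19% over all autosomes, and chromosome 19 was highest at 11.3%. On chromosome 10 the bins covered 3.31 and 3.32 Mb in controls 1 and 2, and 2.83 and 2.54 Mb in mutants 1 and 2. On chromosome 11 they covered 3.75 and 3.85 Mb against 3.73 and 3.34 Mb. The part of these totals in the counts was not tested. Along the chromosomes the share lay between 3.21% in the last and 3.86% in the central of 5 equal parts of the span of called regions, with overlapping intervals of 2.83 to 3.62% and 3.31 to 4.47%.

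**Figure D5:**
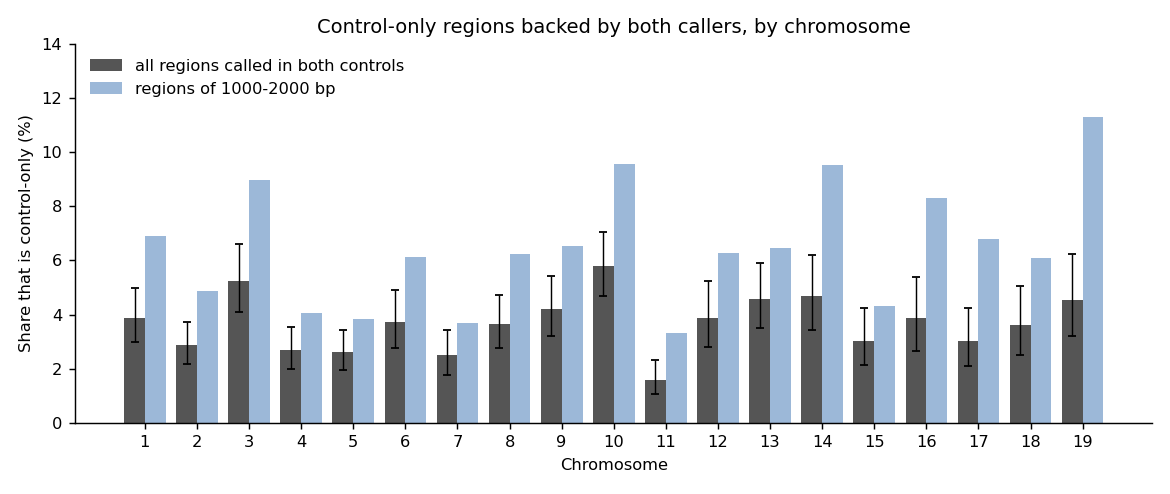
Share (%) of regions called in both controls that are control-only, by chromosome, for all widths (grey, with 95% Clopper-Pearson intervals) and for regions of 1000 to 2000 bp (blue). For all widths the bars run from 1.59% on chromosome 11 to 5.78% on chromosome 10.

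Most control-only regions had a window of 1 Mb to themselves, and 398 of the 910, or 43.7%, shared one. Cut into windows of 1 Mb, the autosomes had 687 windows with at least 1, of which 175 held 2 or more and 39 held 3 or more. No such count was made for an equal number of other regions called in both controls. These counts therefore do not show whether control-only regions lie closer together than others. The most in a single window were 5, at chr8:110000001-111000000, among 31 regions called in both controls of which 16 were retained by both callers. These 5 were between 647 and 1752 bp wide, and the broadest lay at chr8:110191974-110193725, with 770 and 1752 bp of peaks in controls 1 and 2. The most evenly called of them, at chr8:110974762-110975921, had 1160 and 1052 bp of peaks and 5 bins in each control. Bins covered 50.2 and 54.4 kb of that window in controls 1 and 2, and 34.8 and 35.6 kb in mutants 1 and 2, and peaks 57.3 and 68.4 kb against 44.9 and 45 kb. The 5 regions themselves held 3.56 and 3.7 kb of the control bins and 3.99 and 5.54 kb of the control peaks, which the rule requires to be absent in the mutants. Another 7 windows held 4 control-only regions each, and the first 2 of them in chromosome order are described. At chr8:127000001-128000000, 4 of 13 regions were control-only, and the broadest lay at chr8:127483805-127486825, with 2532 and 2406 bp of peaks. Bins there covered 29 and 33.4 kb in controls 1 and 2, and 24.8 and 25.6 kb in mutants 1 and 2. At chr9:120000001-121000000, 4 of 36 regions were control-only, with bins over 52.8 and 55.2 kb against 42.2 and 40.4 kb. Peaks in that window covered 75.6 and 74.7 kb in controls 1 and 2, and 77.1 and 62.9 kb in mutants 1 and 2, and mutant 1 was above both controls. These totals include the control-only regions, which held 2.42 and 3.17 kb of the control bins in that window and 2.8 and 3.66 kb in the one before it. The windows were picked for such regions, so the order of the genotypes in the bin totals is partly set by the choice.

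The mirrored rule, with the genotypes exchanged, gave 209 autosomal regions, or 0.383% of all, against 910. By MACS2 alone the order was the reverse, with 3259 mutant-only regions (5.97%) and 2684 control-only. The bins backed 33.9% of the control-only and 6.41% of the mutant-only MACS2 regions. Of the mutant-only MACS2 regions, 58.3% had no bin in any library. The lists differ in size, with the most peaks in mutant 1 and less bin length in both mutants than in either control. The part of this in these counts was not tested. The count of 910 rests on both libraries of each genotype. With control 1 left out 1667 regions met the loosened rule, with control 2 left out 1803, with mutant 1 left out 1718 and with mutant 2 left out 1451.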

How the data were processed

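H3K27me3 ChIP-seq of 2 control and 2 Ezh2 mutant libraries was used, grouped by their titles. The 2 input samples were not analysed here. The authors called peaks per library with MACS2, per the file headers, and 200-bp bins with hiddenDomains, per the file names. The deposited peak lists give positions only, and the deposited bin lists add a display score of 4 values up to 1000. The mm9 build, Bowtie, SAMtools and bedtools are named in the submitters' processing notes. No label or header gives versions, thresholds or the control track of a list. A deeper library can yield more calls, and the lists were not scaled.

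Regions, covered base pairs and distances were computed with Python 3.11.15, NumPy 2.4.6 and pandas 2.3.3. Any overlap of 1 bp counted as a call. Clopper-Pearson intervals (95%, SciPy 1.17.1) cover counting error only. The code was tested on simulated data, 400 planted intervals, and all 6 checks returned the planted values. No test between genotypes was made, because the calls of all 4 libraries chose the regions. The members, lists and rules were chosen with earlier results of these data known. Regions named are the 10 widest and the 5 with most base pairs of bins in the control with fewer. The 5 farthest from a mutant call are also named. So are those in the 3 windows of 1 Mb with most control-only regions (ties by lower chromosome number, then start). The 3 widest on either side of the rule's edge complete the list. Some of those in the windows are given by range only. The labels do not say whether the 2 libraries per genotype are from different animals. The reference tables given are of GRCm38, and no position was converted to or from that build, so no gene or sequence is given.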

Additional observations from a re-analysis of the deposited data

How the results depend on the processing

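Of 80 recomputed values 51 stayed within their interval, replicate spread or 1.5 times the count, and 29 moved. With 1 library left out, which loosens the rule, the count of 910 became 1451 to 1803 and its median width of 1202 bp became 807 to 1287 bp. The share of regions called in the controls, 3.57%, became 5.25 to 6.74%. The median distance to a region with a MACS2 peak in every library used was 23 to 26.2 kb, and that to a mutant call 12.7 to 18.5 kb. Windows of 1 Mb with several control-only regions numbered 323 to 426 in place of 175. The share was 2.99% with at least 2 bins per control, with bins of the highest score or with control peaks over 50% of the region. It was 2.95% when control peaks and bins each had to cover 25%, 2.85% with no mutant call within 5 kb, and 4.78% (1214 regions) with the 31863 widest peaks of each list. With no mutant call within 5 kb the median distance to a region with MACS2 peaks in all 4 libraries was 34 kb. That to a mutant call was 23.9 kb. Both follow from that condition. The difference in peak length, mutants minus controls, was -153 bp within 10 kb of a region and -566 bp within the longer 50 kb. Relative to the control mean, the mutant mean was 83.1% within 10 kb and 88.2% within 50 kb. With bins within 10 kb the difference was -232 bp, which includes control bins that overhang the regions. With peaks within 10 kb it was -97.1 bp without mutant 2, -210 bp without mutant 1 and -163 and -143 bp without control 1 or 2. Of the recomputed values, the 8 of this difference are the ones that could change sign, and all were negative. All 8 used the same 910 regions, chosen with all 4 libraries, so the rule bears on their sign. The cause of the other shifts was not tested. Leaving out the nearest 2 kb, each library in turn for the surroundings and the windows, and the settings for the edge of the rule were chosen after seeing the data. No paired analysis was possible because the labels do not tie a control to a mutant library and no test was made that could hold a block. Read depth is unknown, so a missing call cannot be told apart from a call missed at low depth.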

Other observations

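Of the 910 control-only regions, 227 had bins of the highest display score only in both controls. In 7 regions control 1 had more than 1 peak, and in 1 region control 2 did. The smallest gap between a control-only region and a mutant call was 0.049 kb, to a peak of mutant 1, and the nearest bin of mutant 1 lay at least 0.941 kb away from every control-only region. The nearest bin of mutant 2 lay at least 0.272 kb away, next to the region on chr17:87439497-87442728.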
